A study of Mus musculus with 24 samples.

Results

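The voltage-gated sodium channel genes examined here were Scn1a, Scn2a, Scn3a and Scn8a, which encode pore-forming alpha subunits, and Scn2b, Scn3b and Scn4b, which encode auxiliary beta subunits. They were taken by name, as 7 of the 33902 gene symbols in a single-nucleus RNA sequencing (snRNA-seq) count table of the ventral hippocampus of adult male mice, 10 to 16 weeks old. The mice came from the inbred strains C57BL/6J (B6) and DBA/2J (D2), of which B6 supplied the mouse reference genome, and the labels name no other allele or treatment. Each strain had 2 libraries, called library 2 and library 3 after the table's numbering, and each library combined tissue of about 2 animals, so animals within a library cannot be told apart. Nuclei were sorted to 75% NeuN-positive (neuronal) and 25% NeuN-negative before capture, and the authors summed the counts of each library over the nuclei of 17 cell types. Names beginning with Exc are excitatory neurons, Inh inhibitory neurons and NN non-neuronal cells, and CR is a small separate type. A second table gave the chromatin accessibility (snATAC-seq) of 15 of these cell types, again in 2 libraries per strain, from nuclei sorted without NeuN. The design asks in which cell types a gene was expressed and whether B6 and D2 differed there.

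Voltage-gated sodium channels open when a membrane is depolarized and carry the inward current of the action potential. An alpha subunit forms the pore by itself, while beta subunits alter its gating and its placement in the membrane. Scn1a is known as the main alpha subunit of inhibitory interneurons, and loss of a copy causes severe childhood epilepsy. Scn2a and Scn8a serve mostly excitatory neurons, where their channels gather at the axon initial segment, and Scn3a is known mainly from the developing brain. Scn3b encodes a non-covalently bound beta subunit, whereas the products of Scn2b and Scn4b are linked to the alpha subunit by a disulfide bond.

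In the mouse genome (GRCm38) 3 of the alpha subunit genes lie together on chromosome 2. Scn3a occupies positions 65457118 to 65567627 on the minus strand, Scn2a positions 65620771 to 65767447 on the plus strand and Scn1a positions 66270778 to 66440840 on the minus strand. Scn8a lies on chromosome 15 at 100869858 to 101045938 on the plus strand. The beta subunit genes are all on the plus strand of chromosome 9, Scn3b at 40269217 to 40291618, Scn2b at 45117782 to 45130070 and Scn4b at 45138395 to 45154152. Scn2b and Scn4b are separated by 8324 bases. The alpha subunit genes span 111 to 176 kb and the beta subunit genes 12.3 to 22.4 kb. An annotated RNA on the other strand overlaps Scn1a (Gm13630), Scn3a (Gm13595), Scn2b (Gm10684) and Scn3b (Gm47266), and whether the counting used strand is not given in the sources used here.

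The promoters differ in their density of CpG sites, the dinucleotides at which mammalian DNA is methylated. Windows of 250 bases just upstream of a start are shown with CpG in capitals, because the chromatin results turn on these starts. All are from RefSeq promoters (GRCm38.p6). The RefSeq starts of Scn8a (100870645) and Scn4b (45138624) lie inside the gene spans given above, so their windows fall wholly or mostly within those spans. The Scn1a window is that of the upstream start, at the outer end of the gene, from chr2:66440838-66441087 and read on the minus strand.
Scn1a upstream start: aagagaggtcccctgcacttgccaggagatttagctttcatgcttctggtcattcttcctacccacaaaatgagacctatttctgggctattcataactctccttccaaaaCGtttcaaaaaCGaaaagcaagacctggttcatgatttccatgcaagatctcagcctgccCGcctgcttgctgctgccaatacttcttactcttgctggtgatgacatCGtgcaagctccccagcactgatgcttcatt
Scn8a, plus strand, chr15:100870395-100870644: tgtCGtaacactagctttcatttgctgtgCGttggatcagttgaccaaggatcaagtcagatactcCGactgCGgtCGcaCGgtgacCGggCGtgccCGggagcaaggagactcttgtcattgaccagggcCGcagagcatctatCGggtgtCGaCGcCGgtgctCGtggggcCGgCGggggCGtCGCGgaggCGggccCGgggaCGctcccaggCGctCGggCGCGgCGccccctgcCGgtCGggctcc
Scn4b, plus strand, chr9:45138374-45138623: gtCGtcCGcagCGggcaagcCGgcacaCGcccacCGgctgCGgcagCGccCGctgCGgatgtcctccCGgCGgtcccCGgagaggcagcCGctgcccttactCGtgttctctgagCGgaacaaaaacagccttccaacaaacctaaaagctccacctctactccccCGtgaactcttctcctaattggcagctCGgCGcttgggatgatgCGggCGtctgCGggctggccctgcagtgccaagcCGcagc
The Scn1a window held 4 CpG sites, and the median over the 32851 promoters in the table was 6. The windows of Scn8a and Scn4b held 30 and 23 CpG sites, and 94.8% and 88.0% of promoters had that many or fewer. RefSeq promoters were found for 5 of the 7 genes, and windows for Scn3a and Scn3b were read from the genome at their annotated starts. Those held 5 and 9 CpG sites.

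The snRNA-seq libraries held 8707 and 7858 nuclei with 54045991 and 56452272 counts in B6, and 8003 and 6312 nuclei with 52113610 and 43048686 counts in D2. Cell type columns ranged from 139713 to 11352265 counts and from 45 to 1489 nuclei. The snATAC-seq libraries held 90684494 to 122322471 counts, and their non-neuronal columns had as few as 14 nuclei. Marker lists peaked in the cell type of their name, except that the dentate granule and Lamp5 lists peaked in CR. The markers of microglia were highest in NN-MGC, those of oligodendrocytes in NN-ODC, of their precursors in NN-OPC, and those of leptomeningeal, vascular and endothelial cells in NN-VLMC. Levels are in CPM, which is the count scaled to the column total, and are given as the mean ± SD of 4 libraries. In sums over nuclei, fewer expressing cells and less RNA per cell cannot be told apart.

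Scn1a was highest in inhibitory neurons. Its mean level was 393 ± 27 CPM in Inh-CGE, 383 ± 42 in Inh-Lamp5 and 371 ± 38 in Inh-MGE (SD, n = 4 in each). In Inh-MGE the libraries read 373 and 424 CPM in B6 and 345 and 341 in D2. The highest excitatory type, Exc-CA1-Fras1, read 216 and 224 CPM in B6 and 199 and 186 in D2. All 4 libraries of each inhibitory type were therefore above all 4 libraries of every excitatory type, while the 3 inhibitory types overlapped among themselves. The other excitatory types ranged in mean from 127 ± 12 CPM in Exc-ENT to 191 ± 17 in Exc-CA3.

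Outside neurons, Scn1a was high in a single type. NN-OPC read 153 and 150 CPM in B6 and 147 and 151 in D2, a mean of 150 ± 2.3 that lay within the excitatory range. The remaining non-neuronal types had means of 16.8 to 27.1 CPM, and CR had 37.4 ± 4.3. Between the highest and the lowest cell type the mean differed 23.4-fold. Of the 16 pairs of neighbours in the order of means, 8 were ordered alike in all 4 libraries and 2 had ranges that did not overlap.

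Scn8a, whose channel carries much of the current at mature axon initial segments, took nearly the opposite order among neurons. It was highest in Exc-CA1-Galntl6, where the libraries read 370 and 394 CPM in B6 and 372 and 363 in D2. The 8 excitatory types ranged in mean from 298 ± 25 to 375 ± 13 CPM. Inh-MGE followed with 237 and 253 CPM in B6 and 233 and 240 in D2, and the mean then dropped to 187 ± 16 in Inh-Lamp5 and 159 ± 14 in Inh-CGE. These 3 inhibitory types did not overlap any excitatory type. Inh-MGE did not overlap Inh-Lamp5, nor Inh-Lamp5 Inh-CGE. Over the 11 neuron types, mean levels of Scn1a and Scn8a, as log2(CPM + 1), had a Pearson correlation of -0.87. It describes types that share libraries, and the excitatory and inhibitory types formed separate groups in it.

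**Figure D1:**
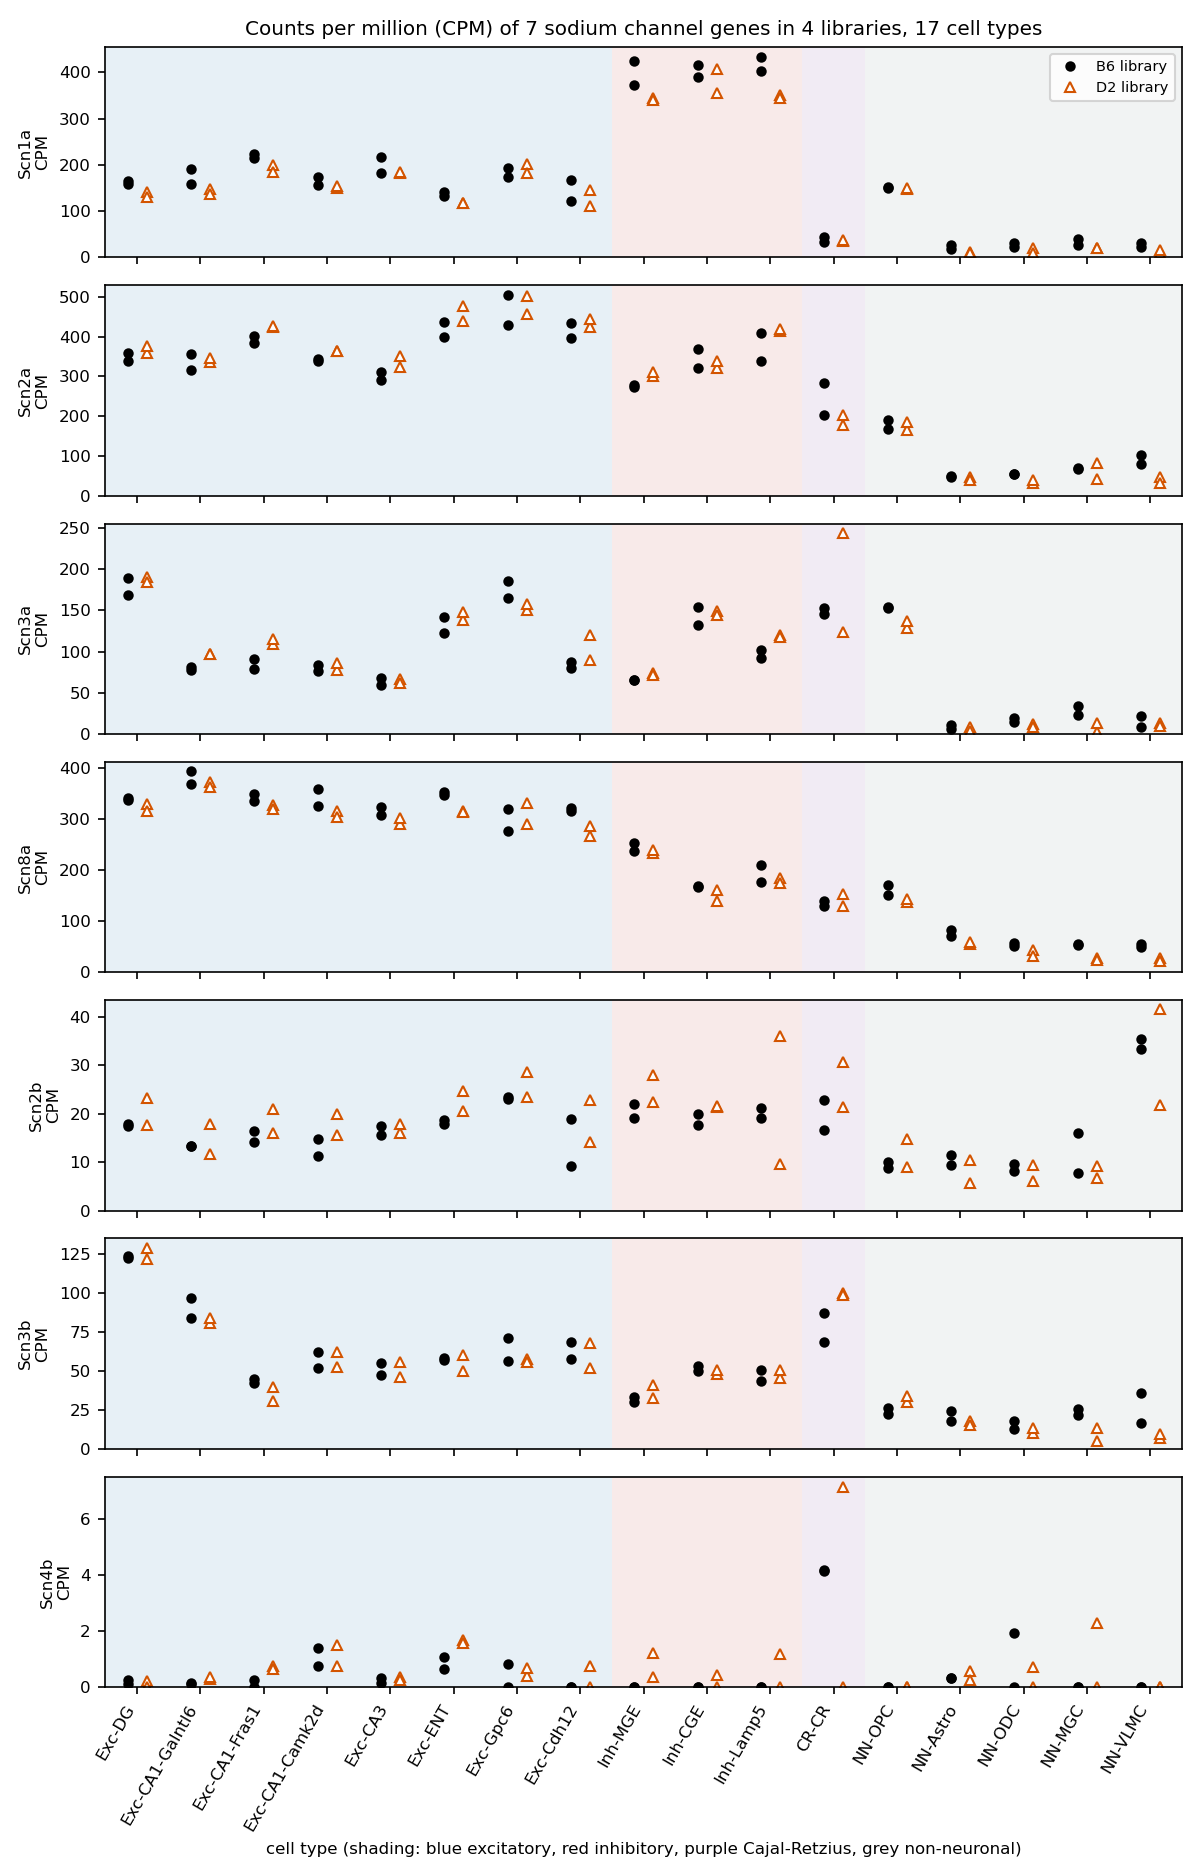
Levels of the sodium channel genes in each cell type. Each point is a library (CPM, linear axis from 0 in each panel), B6 libraries are filled circles and D2 libraries open triangles, and shading marks the classes of cell type. Scn1a stands highest in the 3 inhibitory types, at means of 371 to 393 CPM, and Scn8a in the excitatory types, at 298 to 375 CPM, while Scn4b stays near 0.

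**Figure D2:**
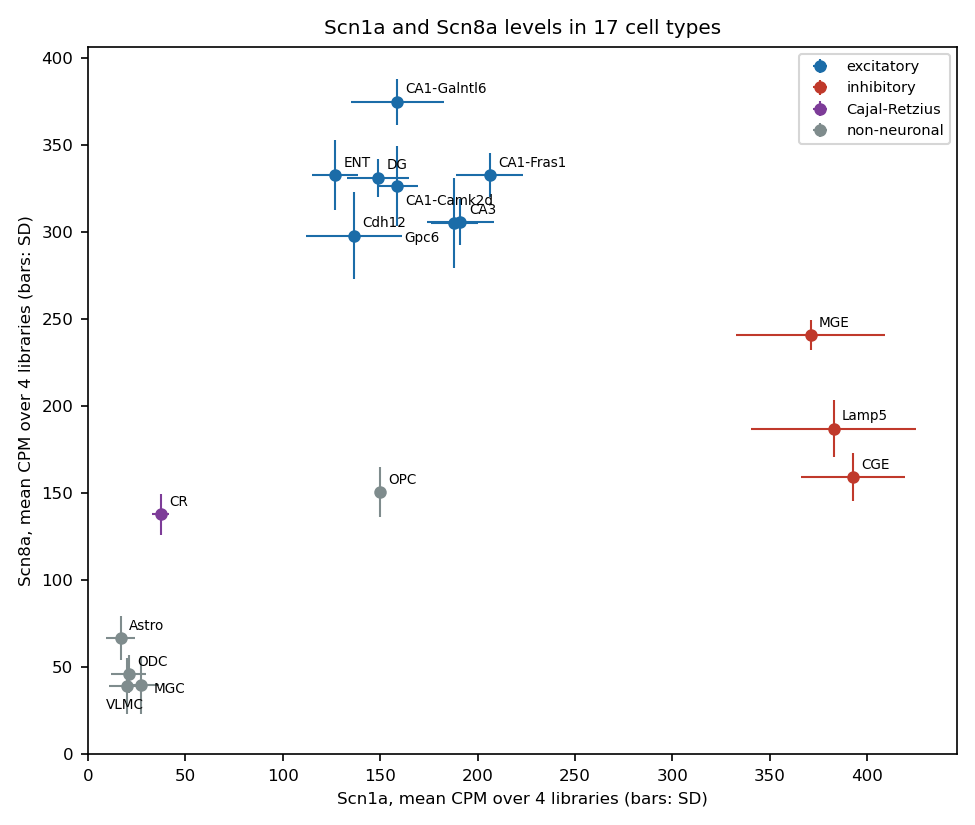
Mean level of Scn1a against that of Scn8a in 17 cell types (CPM, both axes from 0, bars are SD over 4 libraries). The inhibitory types lie to the lower right and the excitatory types to the upper left, and NN-OPC, at 150 CPM of Scn1a and 151 CPM of Scn8a, lies apart from the other non-neuronal types.

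Scn2a, an alpha subunit of excitatory axons, was high in excitatory and inhibitory types alike. It was highest in Exc-Gpc6 (474 ± 36 CPM) and lowest among neurons in Inh-MGE (291 ± 18), with Inh-Lamp5 at 396 ± 38 and Exc-DG at 358 ± 15. Of its 16 neighbouring pairs only the step from NN-OPC (177 ± 12) to NN-VLMC (65.3 ± 32) had ranges that did not overlap.

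Scn3a was highest in Exc-DG, the dentate gyrus neurons, at 169 and 189 CPM in B6 and 191 and 184 in D2. The mean there was 183 ± 10 CPM, and the ranges of CR (166 ± 53) and Exc-Gpc6 (165 ± 15) overlapped it. Among neurons it was lowest in Exc-CA3 (64.1 ± 4.1) and Inh-MGE (69.0 ± 4.4). In NN-OPC it stood at 143 ± 12 CPM, between Inh-CGE (145 ± 9.2) and Exc-ENT (138 ± 11), whereas the remaining non-neuronal types had 7.40 to 18.2 CPM.

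Of the beta subunit genes, Scn3b shared its peak with Scn3a. Exc-DG read 122 and 124 CPM in B6 and 122 and 129 in D2, above every library of every other type. CR (88.7 ± 15) and Exc-CA1-Galntl6 (86.3 ± 7.2) came next, and Inh-MGE was lowest among neurons (34.0 ± 4.6). The other CA1 types were at 39.4 ± 6.2 (Exc-CA1-Fras1) and 57.3 ± 5.7 CPM (Exc-CA1-Camk2d).

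Scn2b was low everywhere, with means from 8.33 ± 1.6 CPM in NN-ODC to 33.1 ± 8.3 in NN-VLMC, and none of its neighbouring pairs had ranges that did not overlap. Its level in NN-VLMC rested on 8 and 16 counts in B6 and 13 and 13 in D2.

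Scn4b, a beta subunit gene known from striatum and Purkinje cells, was close to undetected. It had 89 counts in all 68 columns, and 28 columns were at 0. The largest count in any column was 7, in Exc-ENT, whose mean was 1.24 ± 0.47 CPM. NN-OPC had 0 of 5638464 counts, which allows a level of up to 0.532 CPM, and NN-VLMC 0 of 1610779, which allows up to 1.86. Those limits are 3 counts over the 4 libraries and cover counting error only.

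Between genes, levels in CPM are not directly comparable. Introns were retained in the counting, so levels are also given per length of the gene span. Whether counts scale with span was not tested, and division by span raises short genes such as Scn3b. The order per kb therefore need not be that of transcript abundance. In excitatory types the mean CPM per kb of gene span was 2.99 for Scn3b, 2.65 for Scn2a, 1.85 for Scn8a, 1.46 for Scn2b, 1.03 for Scn3a, 0.967 for Scn1a and 0.0321 for Scn4b. In inhibitory types Scn1a stood at 2.25 CPM per kb, next to Scn2a at 2.33, and Scn8a at 1.11.

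Contrasts between classes of cell types were fitted with edgeR over all symbols, with the library as a block. The authors named the cell types from clusters of the same nuclei, so the classes are not independent of the counts. Inhibitory against excitatory neurons, Scn1a was higher (log2 difference 1.16, SE 0.04, 2.24-fold, edgeR adjusted p = 7.0e-37). Scn8a was lower by contrast (log2 difference -0.82, SE 0.05, 1.77-fold higher in excitatory neurons, edgeR adjusted p = 5.2e-25). Scn3b (-0.61), Scn2a (-0.26) and Scn3a (-0.13) also passed on the excitatory side, and Scn2b did not pass (0.20, SE 0.09, edgeR adjusted p = 0.0551). Thus 5 of the 6 genes that could be tested passed, against 53.1% of all symbols tested in this contrast. Scn4b did not reach the filter on low counts in any fit.

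In neurons against non-neuronal cells, all 6 tested genes were higher in neurons, where 72.1% of all symbols passed in either direction and 37.1% were higher. The log2 differences were 2.87 for Scn1a, 2.56 for Scn2a, 2.50 for Scn3a, 2.40 for Scn8a, 1.83 for Scn3b and 0.74 for Scn2b. NN-OPC, the cells with markers of oligodendrocyte precursors, exceeded NN-ODC, the oligodendrocytes, in 5 of the 6 (46.1% of all symbols passed). The log2 difference was 3.15 (SE 0.16) for Scn3a, 2.59 (SE 0.13) for Scn1a, 1.72 for Scn2a, 1.502 for Scn8a and 0.84 for Scn3b. Scn2b did not pass there (0.11, SE 0.26).

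Within inhibitory neurons, Inh-MGE differed from the other 2 types in 4 of the 6 genes, against 19.5% of all symbols. Scn8a was higher in Inh-MGE (log2 difference 0.46, SE 0.08), while Scn3a (-0.87), Scn3b (-0.56) and Scn2a (-0.34) were lower. Scn1a did not pass (-0.09, SE 0.07). Within excitatory neurons, Exc-DG exceeded the CA types in Scn3a (1.18, SE 0.07), Scn3b (1.16, SE 0.06) and Scn2b (0.29, SE 0.11) and was lower in Scn1a (-0.24, SE 0.06), which made 4 of 6 against 48.5% of all symbols. Scn2a (0.03, SE 0.08) and Scn8a (0.00, SE 0.07) did not pass. Against the CA1 types, Exc-CA3 was lower in Scn3a (-0.45, SE 0.08).

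Candidates were the 13305 symbols that averaged at least 5 CPM over the 17 types and had counts in both strains. The symbols whose levels over the types followed each gene most closely were found by Pearson correlation of log2(CPM + 1). For Scn1a they were Gm7568, Gm13630 and Slc44a5 (0.97, 0.95 and 0.95), and Gm13630 is the RNA that overlaps Scn1a on the other strand. For Scn8a they were Lrrc7, Gm20149 and Ppfia3 (0.97 in each), and for Scn2a Cdr1os, Ksr2 and Bicdl1 (0.99, 0.99 and 0.98). Scn3a was followed by Pelp1, Nexmif and Syt14 (0.96, 0.95 and 0.95), Scn3b by, among others, 4930422M22Rik and Clstn2 (0.92 in each) and Scn2b by Prkci, Plxna2 and Zdhhc1 (0.89, 0.88 and 0.87). The closest to Scn4b, at 0.79, was 9430015G10Rik, with Scn4b itself under 5 CPM in every type.

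The comparison of strains was made within each cell type, as D2 minus B6. All cell types come from the same 4 libraries, so counts of cell types below are not counts of independent results. Of 97 tests on the 6 genes that passed the filter, 10 were called at adjusted p under 0.05 (edgeR, adjusted over all symbols), or 10.3%, against 22.1% over all symbols and cell types. Of these, 8 were lower and 2 higher in D2, where 9.25% and 12.9% of all tests were. They comprised 7 of 48 tests in excitatory types, where 27.1% of symbols were called, 0 of 18 in inhibitory types (16.6%), 3 of 26 in non-neuronal types (17.3%) and 0 of 5 in CR (4.26%). At unadjusted p under 0.05 there were 20 of 97. Of all symbols, 7819 of 17723 in Exc-DG and 1092 of 6661 in CR were at that level. DESeq2 called 2, and its share over all symbols is not given here. The median size of the log2 difference was 0.17 over the 97 tests.

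Scn1a held 5 of the 10 calls, all lower in D2, and 5 of its 16 tests were thus called lower, as were 9.25% of all tests. In single cell types the share of all symbols called in either direction was 36.0% in Exc-DG, 35.0% in Exc-CA1-Galntl6, 28.5% in Exc-CA1-Fras1, 28.0% in Exc-ENT, 26.2% in NN-Astro and 7.87% in NN-VLMC. In Exc-DG, Scn1a fell from 159 and 165 CPM in B6 to 141 and 130 in D2 (log2 difference -0.28, SE 0.08, edgeR adjusted p = 0.0104). Exc-CA1-Galntl6 read 158 and 192 CPM in B6 and 148 and 137 in D2 (-0.32, SE 0.09, edgeR adjusted p = 0.0103). Both D2 libraries were below both B6 libraries in each type.

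The remaining neuronal calls for Scn1a were in Exc-CA1-Fras1 (-0.26, SE 0.09, edgeR adjusted p = 0.0317) and Exc-ENT, where B6 read 133 and 141 CPM and D2 both read 117 (-0.27, SE 0.10, edgeR adjusted p = 0.0286). Among the inhibitory types none passed. Inh-Lamp5 read 402 and 434 CPM in B6 and 351 and 345 in D2 (-0.30, SE 0.13, edgeR adjusted p = 0.132), and Inh-MGE had a log2 difference of -0.25 (SE 0.11, edgeR adjusted p = 0.120). The log2 difference was negative in 10 of 11 neuron types, Exc-Gpc6 being the exception (0.04, SE 0.11). Both D2 libraries lay below both B6 libraries in 11 of all 17 cell types, tested or not. Of all symbol and cell type pairs that were tested, 25.4% did so. The cell types share the 4 libraries, so these counts of types are not independent. The calls were not stable to the choice of libraries: without B6 library 3 or without D2 library 3 a single type was called, the library number as a replicate block left 3, and DESeq2 called 2, although the median log2 difference kept its sign (-0.18, -0.21, -0.25 and -0.27, against -0.26 with all 4 libraries).

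**Figure D3:**
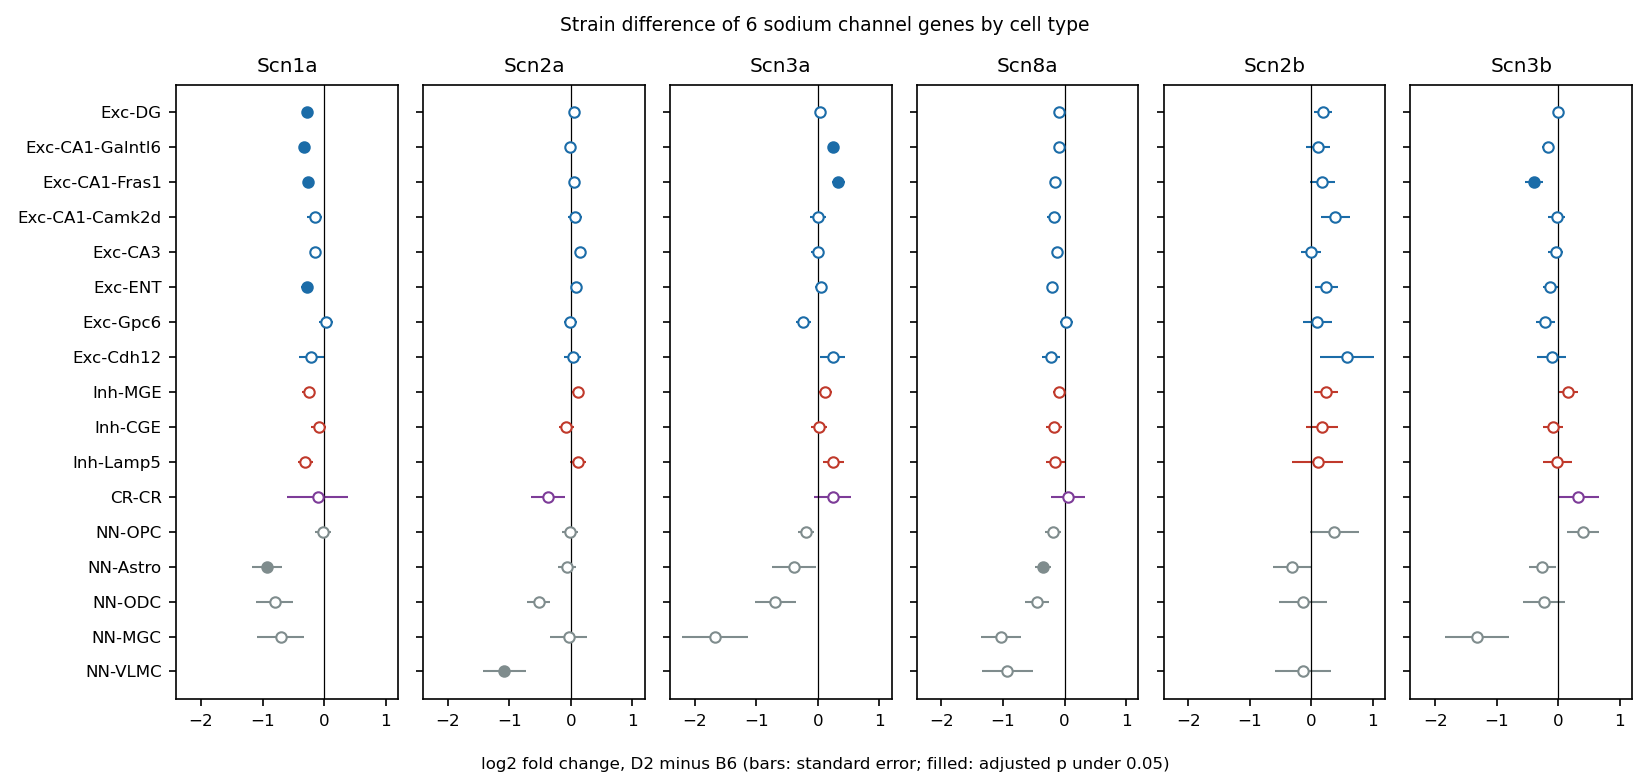
Strain difference of 6 genes in each cell type (log2 D2 minus B6, bars are standard errors, filled symbols passed adjusted p under 0.05). For Scn1a 15 of 16 and for Scn8a 15 of 17 points lie below 0, whereas Scn3a has its 2 filled points above 0. The points of a gene come from the same 4 libraries and are not independent.

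Scn3a held both calls that were higher in D2. Exc-CA1-Fras1 rose from 78.8 and 91.2 CPM in B6 to 109 and 116 in D2 (log2 difference 0.33, SE 0.11, edgeR adjusted p = 0.02). Exc-CA1-Galntl6 rose from 77.6 and 81.7 CPM to 97.0 and 96.9 (0.25, SE 0.08, edgeR adjusted p = 0.0231). Neither was called by DESeq2, nor with any library left out apart from B6 library 3. In Exc-DG, where Scn3a is highest, the log2 difference was 0.05 (SE 0.08).

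Scn3b was lower in D2 in Exc-CA1-Fras1, which read 44.9 and 42.2 CPM in B6 and 30.7 and 39.8 in D2 (-0.39, SE 0.15, edgeR adjusted p = 0.0465). It was not called by DESeq2, with symbols counted in both strains, without B6 library 2 (-0.35) or without D2 library 2 (-0.22). In Exc-DG, its highest type, the log2 difference was 0.00 (SE 0.07).

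Scn8a was called in no neuron type. Its log2 difference was negative in 10 of 11 of them, which come from the same 4 libraries, with a median of -0.15. Exc-ENT came nearest, with 347 and 353 CPM in B6 and 316 and 314 in D2 (-0.20, SE 0.08, edgeR adjusted p = 0.0688). Scn2a was likewise called in none, with log2 differences from -0.08 to 0.14 in neurons. The difference in Exc-DG was 0.05 (SE 0.06). Scn2b, positive in 10 of 11 neuron types, was called nowhere and had a smallest adjusted p of 0.310 (edgeR). Scn4b was not tested, with 38 counts in B6 and 51 in D2.

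In non-neuronal types the 3 calls were all lower in D2. Scn1a in NN-Astro read 18.3 and 26.5 CPM in B6 and 12.6 and 9.59 in D2 (-0.93, SE 0.24, edgeR adjusted p = 0.00255). Scn8a in NN-Astro read 70.8 and 82.8 CPM in B6 and 55.1 and 58.3 in D2 (-0.35, SE 0.13, edgeR adjusted p = 0.0434). Scn2a in NN-VLMC read 80.0 and 102 CPM in B6 and 47.2 and 32.1 in D2 on 10 to 49 counts (-1.08, SE 0.35, edgeR adjusted p = 0.0437). Of 5 neuron markers tested in NN-Astro, 3 had negative log2 differences and 1 was called. That was Slc17a7, the vesicular glutamate transporter of excitatory neurons, at 58.4 to 61.8 CPM in B6 and 35.7 to 45.2 in D2 in NN-Astro (-0.48, SE 0.14, edgeR adjusted p = 0.00975). The sum of 6 neuron markers was 93.0 to 97.6 CPM in B6 and 68.7 to 85.4 in D2 in NN-Astro, and 93.3 to 135 in B6 and 77.5 to 93.0 in D2 in NN-VLMC. Their part in the result was not tested.

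Whether the strain difference itself varied with class was tested in a joint fit of all neuron types. For the 6 genes, none of 12 interaction tests was called (edgeR; 0 at unadjusted p under 0.05, and no other tool was run), against 2.17% of symbols for inhibitory against excitatory neurons and 2.35% for Exc-DG against the other excitatory types. Of 18857 symbols, 2208 and 2031 were at unadjusted p under 0.05 in these respective tests. For Scn1a the strain difference in inhibitory less that in excitatory types was -0.02 on the log2 scale (95% interval -0.14 to 0.11). Over the 12 tests the differences ran from -0.10 to 0.15.

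Strain differences in the table as a whole moved with the length of the gene. In the 11 neuron types the median log2 difference was 0.24 to 0.34 for symbols spanning under 10 kb and -0.14 to -0.10 for those of 100 kb or more. The 4 alpha subunit genes here span over 100 kb. In neurons 25 of their 44 log2 differences were negative, with a median of -0.04, and Scn1a and Scn8a, the longest pair, accounted for 20 of the 25. The part of gene span in the result was not tested.

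**Figure D4:**
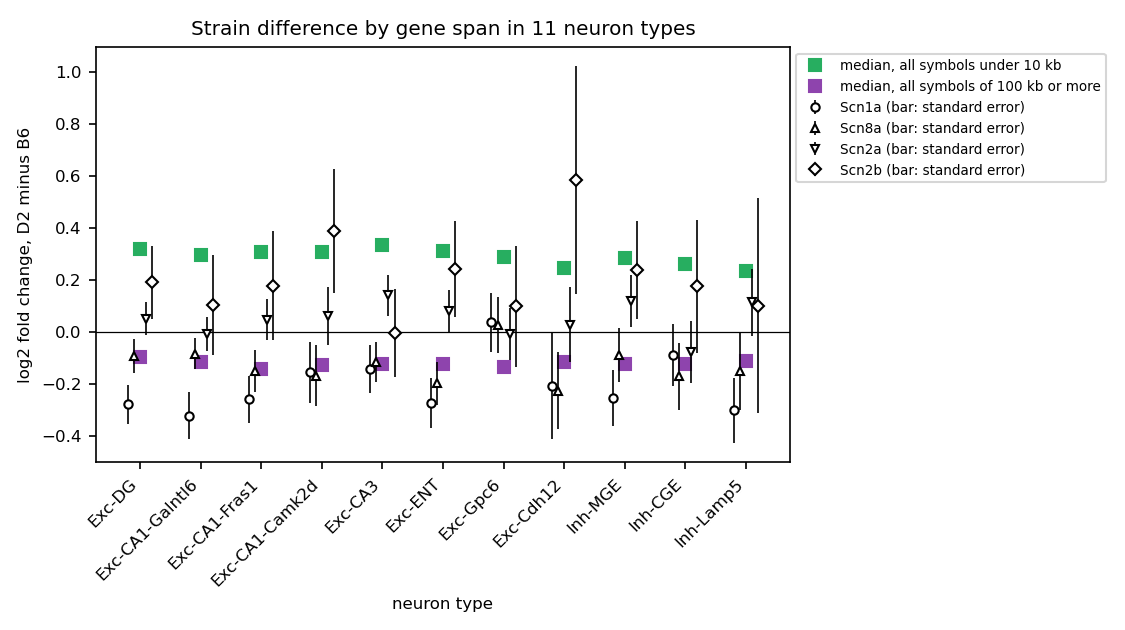
Strain difference by gene span in 11 neuron types (log2 D2 minus B6). Squares give the median over symbols of each span class, and open symbols with standard error bars give Scn1a, Scn8a, Scn2a and Scn2b. Medians of symbols under 10 kb lie at 0.24 to 0.34 and those of 100 kb or more at -0.14 to -0.10, and Scn1a, at 170 kb, lies below 0 in 10 of 11 types. The types come from the same 4 libraries and are not independent.

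Around the 7 genes, 27 related genes were considered, namely the rest of the sodium channel family, the sodium leak channel, fibroblast growth factor homologous factors that bind the channel's tail, proteins that anchor channels at the axon initial segment or nodes, and regulators such as calmodulin. In all, 24 could be tested. In 366 tests 89 were called (24.3%, 66 lower and 23 higher in D2), a share close to the background of 22.1%. Among excitatory types 56 of 178 tests were called, where 27.1% of symbols were, and among inhibitory types 4 of 70, where 16.6% were. In non-neuronal types 29 of 98 were called, where 17.3% of symbols were, and in CR 0 of 20, where 4.26% were. In neurons, 127 of 147 log2 differences were negative among the related genes of 100 kb or more and 37 of 101 among the shorter ones.

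The genes called lower in the most cell types were Ank2 (9 of 17), Fgf14 (8), Map1b (7) and Fgf12 (7). Ank2 encodes an ankyrin that tethers membrane proteins to the spectrin skeleton, and in Exc-Gpc6 it fell from a mean of 1979 CPM in B6 to 1484 in D2 (log2 difference -0.45, SE 0.09, edgeR adjusted p = 8.7e-05). Fgf14 and Fgf12 encode homologous factors that modulate channel inactivation. Fgf14 in Exc-ENT had a mean of 3061 CPM in B6 and 2506 in D2 (-0.34), and Fgf12 in the same type 1056 and 810 CPM (-0.43). Map1b, a microtubule-associated protein, was lower in Exc-DG (-0.36) and higher in NN-OPC (0.47).

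Among those called higher in the most types were Calm2 (6 of 17), Unc80 (2) and Cntn1 (2). Calm2 encodes calmodulin, which binds the channel's tail. Calm2 in Exc-DG rose from a mean of 219 CPM in B6 to 298 in D2 (0.42, edgeR adjusted p = 0.000307). Unc80, an accessory subunit of the sodium leak channel, was higher in 2 excitatory types and lower in NN-Astro and NN-ODC. Cntn1, an adhesion protein that associates with channels, was higher in Exc-DG and NN-Astro and lower in NN-ODC and NN-MGC.

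Within the family but outside the 7 genes, Scn9a, best known from sensory neurons, followed Scn1a into the inhibitory types. It stood at 441 ± 133 CPM in Inh-MGE, 352 ± 22 in Inh-CGE and 135 ± 4.1 in Inh-Lamp5, and the log2 difference of inhibitory against excitatory neurons was 3.24 (SE 0.08, edgeR). Scn7a was tested between strains in 5 types at low levels, and its log2 difference was negative in all 5. It was called lower in D2 in Exc-CA3 (-0.69, SE 0.21, edgeR adjusted p = 0.0169), where 32.1% of all symbols were called. Scn4a, Scn10a and Scn11a were tested in none.

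Chromatin at the starts of these genes was read from snATAC-seq counts in 15 peaks within 1000 bases of an annotated start. Scn1a had peaks over its upstream and downstream starts. A peak over starts further inside the gene averaged 1.35 CPM in excitatory and 0.688 in inhibitory types. The upstream peak lay on chromosome 2 at 66439606 to 66441251. At the upstream start the libraries of Inh-MGE read 22.4 and 21.9 CPM in B6 and 23.7 and 21.7 in D2, those of Inh-CGE 24.6 and 26.4 in B6 and 20.8 and 22.4 in D2, and those of Exc-DG 5.67 and 5.498 in B6 and 6.40 and 6.90 in D2. In both of those inhibitory types all 4 libraries thus lay above all 4 of Exc-DG. The downstream start was open in both classes, at 33.2 ± 2.2 CPM in Inh-MGE and 18.8 ± 0.90 in Exc-DG (SD, n = 4).

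Over all inhibitory against excitatory types, the upstream Scn1a peak had a log2 difference of 1.41 (SE 0.09, edgeR adjusted p = 4.4e-59) and the downstream peak one of 0.61 (SE 0.06). The median over all peaks was -0.19, so relative to it the upstream peak was 1.60 higher, or 3.03-fold, and the downstream peak 0.80. Under RLE scaling the median moved to -0.42 and the upstream peak was 1.59 above it. Among the 15 peaks 6 were called higher and 1 lower in inhibitory types, where 21.5% and 29.9% of all peaks were. Under RLE scaling the balance turned over, with 3 called higher and 6 lower, where 15.05% and 39.12% of all peaks were. The peak called lower under both scalings was a small Scn8a peak beside a start, with 372 counts in all. It averaged 0.971 CPM in excitatory and 0.494 in inhibitory types (log2 difference -2.16, SE 0.60, edgeR adjusted p = 0.000989, and -2.35 under RLE scaling). Scn8a, whose RNA was lower in inhibitory types, had a main start peak that was slightly higher there (0.25, SE 0.05, or 0.44 relative to the median). Under RLE scaling that difference was 0.01 and was not called, but still 0.43 above the median. Scn2b (0.30) and Scn4b (0.46) were also higher, and under RLE scaling the call was lost for Scn2b (0.06). The 3 Scn2a peaks and those of Scn3a and Scn3b over a start did not pass. Under RLE scaling the Scn2a peaks (-0.25, -0.32 and -0.41) and the Scn3b peak (-0.22) were called lower, while each lay above the median over all peaks under both scalings.

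**Figure D5:**
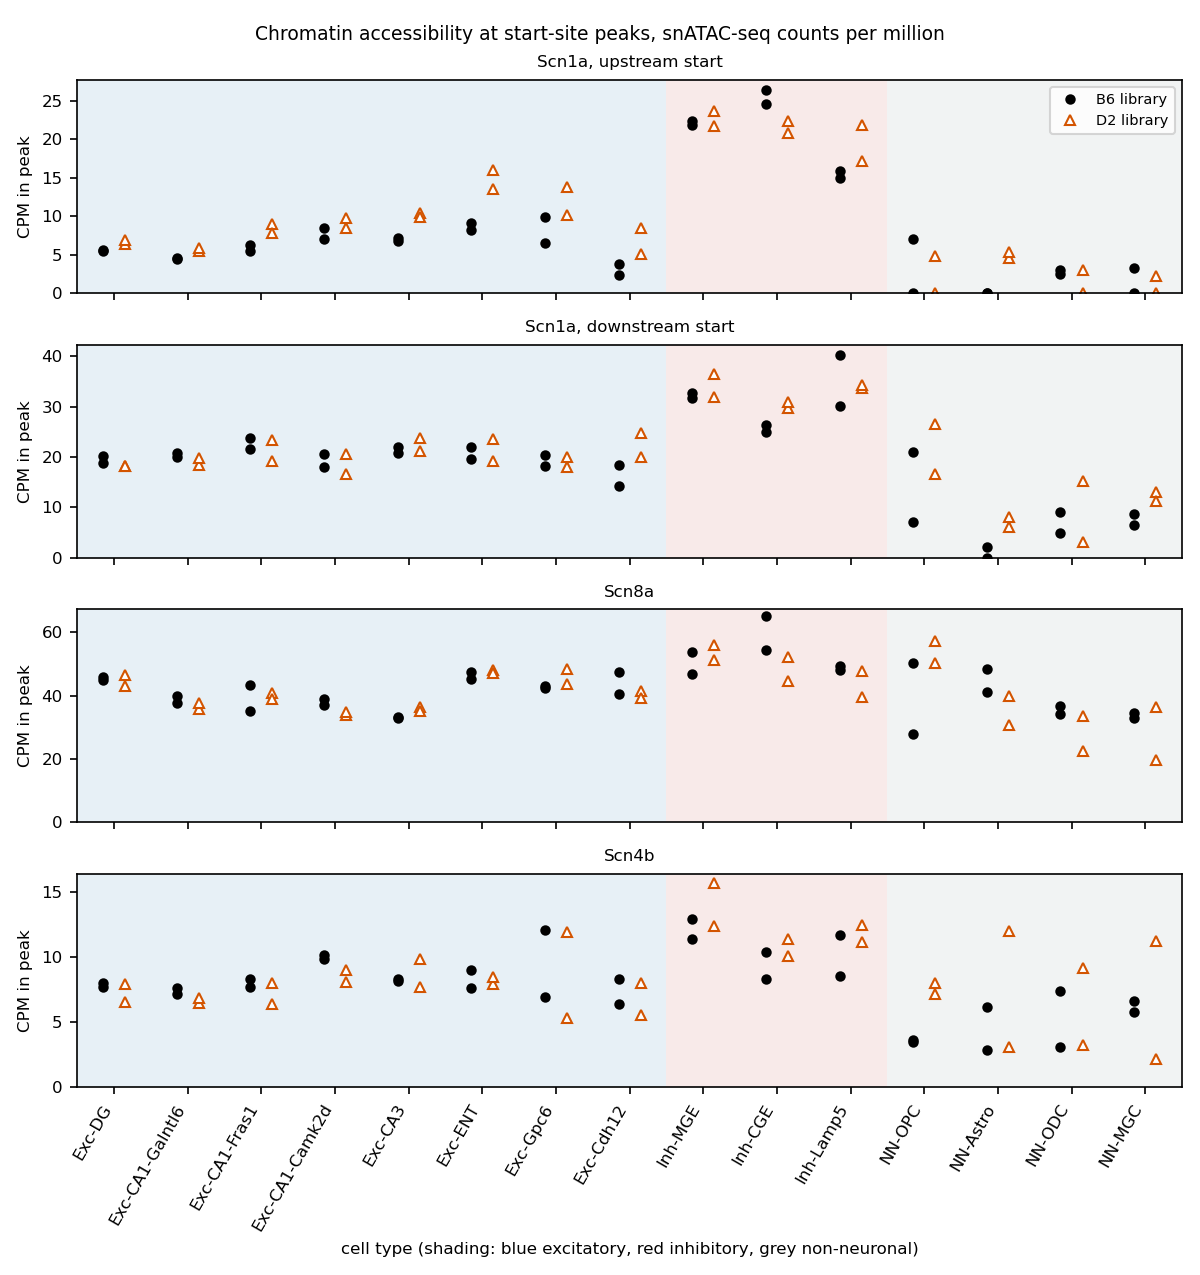
Accessibility of start-site peaks by cell type (CPM in the peak, axes from 0, filled circles are B6 and open triangles D2 libraries, shading marks the classes). The upstream Scn1a start reads 17.5 to 23.6 CPM on average in inhibitory types and 4.97 to 11.7 in excitatory types.

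Neurons against non-neuronal cells, 14 of the 15 peaks were higher, as were 55.6% of all peaks, whose median log2 difference was 2.11. Relative to that median the upstream Scn1a peak was 0.73 higher, and the main Scn8a peak 1.07 lower, at a log2 difference of 1.04 (SE 0.09). At the Scn8a start NN-Astro had 40.1 ± 7.3 CPM and NN-OPC 46.5 ± 13, next to 45.2 ± 1.6 in Exc-DG. Scn4b, with almost no RNA, had an open start at 7.51 ± 0.68 CPM in Exc-DG and 13.1 ± 1.9 in Inh-MGE. Inh-MGE against the other inhibitory types, 7 peaks were called higher, against 15.2% of all peaks, and 6 of them lay within 0.27 of the median over all peaks (0.26). Under RLE scaling 1 was called higher, a Scn8a peak beside a start, and 2 lower, those of Scn3a and Scn3b over a start, where 9.49% and 7.86% of all peaks were. Over the 3 contrasts 28 of 45 were called, 27 higher and 1 lower. Under RLE scaling there were 24, 16 higher and 8 lower.

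Between strains, none of the 15 peaks was called in Exc-DG or in Inh-MGE (edgeR; 1 at unadjusted p under 0.05 in each, and 0 by DESeq2), where 5.97% and 0.87% of all peaks were called. Of all peaks, 47535 of 297387 in Exc-DG and 20571 of 239743 in Inh-MGE were at unadjusted p under 0.05. Because the upstream Scn1a peak looked higher in D2, the test was then run in all 15 cell types, a choice made after the levels were seen. In 8 of 8 excitatory types, which come from the same 4 libraries and so are not independent, both D2 libraries were above both B6 libraries at this peak. This describes a peak picked for being higher in D2. The share of all peaks that were so was 17.1% in Exc-Cdh12, 17.4% in Exc-CA1-Fras1, 18.5% in Exc-CA1-Camk2d, 18.6% in Exc-Gpc6, 18.8% in Exc-DG, 18.9% in Exc-CA3, 19.0% in Exc-ENT and 19.1% in Exc-CA1-Galntl6. It was called in Exc-CA3, at 6.76 and 7.12 CPM in B6 and 10.4 and 9.97 in D2 (log2 difference 0.60, SE 0.13, edgeR adjusted p = 0.000733), where 5.03% of all peaks were called. Exc-ENT was the other, at 9.16 and 8.24 CPM in B6 and 13.6 and 16.0 in D2 (0.79, SE 0.19, edgeR adjusted p = 0.00400), where 1.39% of all peaks were called. The RNA of Scn1a had a log2 difference of -0.14 and -0.27 in the same types. In inhibitory types the differences at this peak ran from -0.20 in Inh-CGE to 0.33 in Inh-Lamp5, and none was called.

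A further call was a Scn2a peak, on chromosome 2 at 65620559 to 65622548, which was higher in D2 in Exc-CA1-Fras1, at 12.01 and 14.0 CPM in B6 and 16.9 and 18.9 in D2 (0.51, SE 0.15, edgeR adjusted p = 0.0336), where 2.18% of all peaks were called. These 3 calls were all that the 15 types gave for the 15 peaks, where 2.73% of all tests were called. Not every one of these peaks reached the filter on counts in every type, least often in non-neuronal types. At the downstream Scn1a peak the log2 differences in excitatory types ran from -0.06 to 0.46 and none was called.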

How the data were processed

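The data are snRNA-seq and snATAC-seq of 2 strains, 2 libraries each. The 16 methylation samples were not analysed here. Per the methods, the authors mapped reads with Cell Ranger 6.0.2 (introns retained) and Cell Ranger ATAC 2.0.0 to mm10, into which the D2 single-nucleotide variants were substituted for the D2 libraries, removed doublets, called peaks per sample and merged them, and named cell types by clustering. The authors deposited raw counts, each the sum for a cell type and library, and the number of nuclei, and no column was left unused. The tables number libraries 2 and 3 where the labels number replicates 1 and 2. Columns were therefore assigned by strain alone.

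Counts were tested with edgeR 4.0.16 in R 4.3.3 (TMM normalization, quasi-likelihood F test, Benjamini-Hochberg adjustment over all symbols or peaks of a fit, calls at 0.05). Symbols were kept by filterByExpr and peaks by at least 10 counts. Strain was tested per cell type without covariates, with 2 libraries against 2. Class contrasts used all cell types, and interactions the excitatory and inhibitory types, with the library as a block. Standard errors were the absolute log2 difference over the root of F, and intervals are normal approximations. DESeq2 1.42.0, RLE normalization, other filters, the library number as a block and each library left out were alternatives. The steps were tested on simulated counts, at a fixed dispersion that was larger than that fitted to these data in Exc-DG and Inh-MGE. Of simulated strain changes of 1 on the log2 scale, snRNA-seq recovered 72% in Exc-DG and 65.5% in Inh-MGE. In snATAC-seq 31.5% and 24.5% were recovered. Because of the larger simulated dispersion, these shares do not tell how many changes of that size would be missed in these data. P-values of the strain tests measure the spread between libraries of pooled animals. Those of class contrasts and interactions measure the spread left among cell type columns of the same libraries after the library is fitted. They do not measure the spread between animals.

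Genes came from GENCODE vM21 and promoters from RefSeq, both on GRCm38. The 7 genes, the 27 related genes and the markers were chosen with earlier results of these data known. Named were all 7 genes, the related genes called in one direction in most cell types (at most 4 each way), family members, the 3 symbols most alike and the peak with most counts at each gene. Other peaks were chosen after their values were seen. Some items that this rule names are not reported here.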

Additional observations from a re-analysis of the deposited data

Results flagged for a closer look

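Both interaction tests of the strain difference of Scn9a were called, and that difference also varied within the classes. The interaction of inhibitory less excitatory types was -0.5 on the log2 scale (SE 0.11, edgeR adjusted p = 0.00418), and that of Exc-DG less the other excitatory types was -0.58 (SE 0.13, edgeR adjusted p = 0.00316). Inh-MGE read 486 and 606 CPM in B6 and 358 and 312 in D2, Exc-DG read 102 and 102 CPM in B6 and 90.8 and 76.0 in D2, and Exc-Gpc6 read 27.2 and 34.7 CPM in B6 and 59.1 and 58.0 in D2. Among inhibitory types the log2 difference was -0.74 in Inh-MGE, -0.13 in Inh-CGE and -0.08 in Inh-Lamp5, and the last pair was not called. In the tested excitatory types it ran from -0.31, in Exc-DG and in Exc-CA1-Galntl6, to 0.87 in Exc-Gpc6.

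The log2 differences of Scn3a had opposite signs, with no overlap of the libraries, in a pair of excitatory types, and the difference between the types was not tested. The log2 difference of D2 minus B6 was 0.33 in Exc-CA1-Fras1, with both D2 libraries higher, and -0.23 in Exc-Gpc6, with both lower, where it was not called (edgeR adjusted p = 0.177). Over all symbols and cell types tested, both D2 libraries were lower in 25.4%, and the share with both higher is not given here.

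The upstream Scn1a start peak had a log2 difference of 0.99 in Exc-Cdh12 (SE 0.57, both D2 libraries higher, 39 counts in all) and of -0.2 in Inh-CGE (SE 0.19, both lower, 293 counts). Neither was called (edgeR adjusted p = 0.748 and 0.924), and the difference between them was not tested. Of all peaks, 17.1% had both D2 libraries higher in Exc-Cdh12 and 18.7% had both lower in Inh-CGE.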

How the results depend on the processing

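The strain calls among the 7 genes numbered 10, and 3 to 10 when 1 library was left out, with 3 without D2 library 3 and 5 without B6 library 3 or D2 library 2. DESeq2 gave 2 of these calls. The related genes had 89 calls, 53 to 92 when 1 library was left out (53 without D2 library 3), and 52 by DESeq2. The class contrasts of the genes gave 25 calls (22 to 26 with a library left out) and those of the peaks 28 (21 to 24, and 24 under RLE). The interactions gave 0 throughout. The peak strain calls gave 0 in the other alternatives and 3 in the 15 cell types tested after the levels were seen.

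With the library number as a replicate block, the strain calls were 8 for the 7 genes and 88 for the related genes, and without the block the class contrasts gave 25 and 28. The labels share numbers between strains, but 2 pairs do not show that the numbers pair the libraries. Of the single results that passed the threshold, none changed sign under any alternative run. Of those that did not pass, peaks over a start changed sign under RLE, in inhibitory against excitatory types for Scn3b (0.02 to -0.22) and Scn3a (0.03 to -0.21), and in Inh-MGE against other inhibitory types for 2 Scn2a peaks (0.16 to -0.05 and 0.03 to -0.18). Among single results, 44 of 228 values with a library left out and 24 of 216 under other alternatives were no longer past the threshold. Columns with few counts, such as NN-VLMC and NN-MGC, limit what could be called there.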
